A study of Mus musculus with 22 samples.

Results

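The genes described are ornithine decarboxylase (Odc1) and 9 further genes of polyamine metabolism, Amd1, Srm, Sms, Oaz1, Oaz2, Azin1, Azin2, Sat1 and Smox. They were found by their Ensembl identifiers in the deposited table of raw counts, and they make up 10 of its 53379 genes. Odc1 was chosen by its difference in counts between kainate and sham libraries, so its kainate values are given as a description without a test.

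The mRNAseq libraries were made from sorted nuclei of the hippocampus contralateral to the injection, taken 24 h after kainate or saline was placed above the right hippocampus of adult male C57/BL6N mice. Nuclei that bound an antibody against NeuN, a neuronal nuclear protein, are called neurons, and NeuN- nuclei are called glia, although the latter fraction also takes up every other cell without NeuN. Each treatment comprised 8 mice pooled into 3 samples with unequal numbers of mice, and which replicate number held the larger pool is not given. Each pool was split into both fractions, which gave 3 libraries of kainate neurons, 3 of sham neurons, 3 of kainate glia and 2 of sham glia. Sham glia replicate 2 failed in preparation, and only kainate mice with convulsive seizures entered the study.

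Depth ranged from 12058875 to 45428465 counts per library, and each of the 10 genes passed the filter on low counts with 175 to 4655 reads per library. A low RNA input of 0.05 ng with 15 cycles of amplification was used for kainate glia replicate 2 and for sham glia replicate 1, whereas 1 ng and 10 cycles were used for the remaining 9 libraries. The libraries of replicate 1 stood apart, with 37158 to 41933 genes detected against up to 50104 in the others. Replicate 1 was the highest library of its group in 35 of the 40 combinations of a gene and a group, and the cause was not tested. All 7 neuronal markers were called higher in NeuN+ nuclei at FDR below 0.25, as were 16.8% of all genes tested. Called lower were all 6 astrocyte, 6 microglial, 6 oligodendrocyte, 4 oligodendrocyte precursor and 3 pericyte markers, against 20.4% of all genes. Of the 4 endothelial markers 3 were called lower, and of the 3 choroid plexus markers 1 was called higher. With the pool as a block, which called 59.7% of all genes, 4 endothelial and 2 choroid plexus markers were called lower, and 1 choroid plexus marker higher.

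Polyamines are small positively charged molecules that bind nucleic acids and modulate ion channels, among them glutamate receptors. Odc1 makes putrescine from ornithine in the first committed step. Amd1 provides the aminopropyl donor, with which Srm extends putrescine to spermidine and Sms extends spermidine to spermine. The antizymes Oaz1 and Oaz2 bind the Odc1 protein and direct it to degradation, and the antizyme inhibitors Azin1 and Azin2 bind the antizymes in its place. Sat1 acetylates spermidine and spermine, and Smox oxidizes spermine back to spermidine. Odc1 is known as a gene induced by growth stimuli and by seizures, with a messenger and a protein that turn over quickly.

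Odc1 (ENSMUSG00000011179, mm10, chr12:17544794-17551505, plus strand) reached 59.1, 67.9 and 59.6 normalized counts (CPM, counts scaled to a common library total with TMM factors) in the libraries of kainate neurons. Sham neurons held 27.2, 21.6 and 19.3 CPM of Odc1. The groups did not overlap, with every kainate library above the sham ones. In glia, Odc1 was at 47.2, 37.2 and 35.8 CPM after kainate and at 11.8 and 8.68 CPM in sham libraries, again without overlap. Among all genes tested, kainate libraries lay above sham libraries without overlap in 4.26% in neurons and 4.7% in glia. The group means of Odc1 were 62.2 ± 4.93 (SD, n = 3) and 22.7 ± 4.07 (n = 3) CPM in neurons, and 40.0 ± 6.20 (n = 3) and 10.2 ± 2.18 (n = 2) CPM in glia. Since these are bulk libraries of sorted nuclei, fewer cells that hold a transcript and less RNA per cell cannot be told apart.

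**Figure D1:**
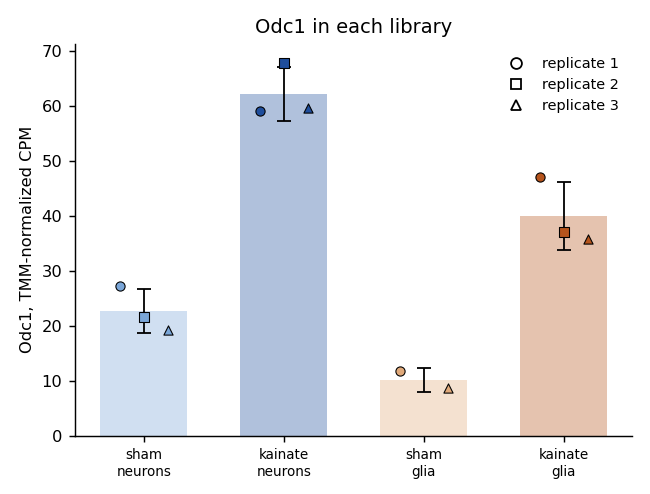
Normalized CPM of Odc1 (vertical axis) in the 11 libraries of the 4 groups, with symbols for the replicate number, bars for group means and error bars for the SD. The kainate libraries sit between 59.1 and 67.9 CPM in neurons and between 35.8 and 47.2 CPM in glia, above the sham libraries of the same fraction.

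The log2 fold change of Odc1 between kainate and sham was 1.46 (standard error 0.31) in neurons, a 2.74-fold difference of the fitted levels, and 1.97 (standard error 0.36) in glia, a 3.92-fold difference. Compared by replicate number, the ratio of kainate to sham was 2.17, 3.14 and 3.09 in neurons and 4.01 and 4.13 in the glial replicates 1 and 3. The difference between the effects in neurons and glia draws on the same kainate and sham libraries as the choice of Odc1. Its test is therefore not independent of that choice, and no conclusion is drawn from it. The difference was -0.52 on the log2 scale (standard error 0.46, FDR = 1.00 by edgeR's quasi-likelihood test).

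Odc1 was higher in NeuN+ than in NeuN- nuclei over both treatments, by 0.89 on the log2 scale (standard error 0.23, FDR = 0.0146). Within a pool, the ratio of neurons to glia was 1.25, 1.83 and 1.66 in the kainate pools and 2.31 and 2.22 in the sham pools 1 and 3. Odc1 was thus higher in neurons in 5 of 5 pools, while the libraries of kainate glia lay above those of sham neurons.

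A stretch upstream of Odc1 is shown for the letters of 4 elements that are textbook targets of growth- and activity-regulated factors, because Odc1 had the largest kainate difference of the 10 genes in either fraction. RefSeq promoter windows (GRCm38.p6, 250 bases before to 50 bases from the start site) were matched for 7 of the 10 genes, with 8 windows in all, since Sms has a pair of them. No window in the set used was matched to Azin1, Azin2 and Srm. The elements searched on both strands were the E-box CACGTG, the half-site TGACG of the cAMP response element, the AP-1 element TGANTCA and the GC box GGGCGG. In the window of Odc1, whose start site is base 17544873 of chromosome 12 on the plus strand, 1 half-site and 4 GC boxes were found, with positions counted from that start and capitals marking the elements (CCGCCC is the GC box on the other strand).
GC box at -238, chr12:17544624-17544651: ccagccgactcCCGCCCgctgcccatag
GC box at -116, chr12:17544746-17544773: gcggggcgtatGGGCGGgtgggtgggca
GC box at -88 and half-site at -79, chr12:17544783-17544810: ccCCGCCCcacTGACGcgcccggcccgc
GC box at -15, chr12:17544847-17544874: ccacggagtccCCGCCCctcccccgcgc

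The half-site began at base 17544794, the first base of the Odc1 gene in the GENCODE M21 annotation. Of all 32851 windows, 20.8% held TGACG, 35.7% the GC box, 7.15% the E-box and 7.81% the AP-1 element. Among the 8 windows of the polyamine genes, TGACG was in those of Amd1, Oaz1 and Odc1, and the GC box in 6 windows, those of Amd1, Oaz2, Odc1, Sat1, Smox and 1 of Sms. The E-box was in the other window of Sms, and the AP-1 letters were in none of these windows. A match describes the letters only.

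In neurons, none of the other 9 genes was called different between kainate and sham at FDR below 0.25 by edgeR's quasi-likelihood test, where 0.165% of all 40714 genes tested were called. None had an unadjusted p below 0.05 either, a mark that 2.09% of all genes reached, and DESeq2's Wald test called none of the 9, against 0.884% of all genes. The median log2 fold change of the 9 genes was 0.16, beside -0.01 over all genes tested, and 7 of the 9 values were above 0. Sat1, the acetylating enzyme of polyamine breakdown, had the largest value of the 9, 0.95 on the log2 scale (standard error 0.66, FDR = 1). It was at 66.4, 43.7 and 29.8 CPM in kainate neurons and at 37.9, 15.2 and 19.6 CPM in sham neurons. The groups overlapped, since sham replicate 1 lay above kainate replicate 3, but kainate was above sham within each replicate number, by 1.75, 2.88 and 1.52 times. With the replicate number as a block, Sat1 was called in neurons, 0.98 higher on the log2 scale (standard error 0.20, FDR = 0.000615), and 5.09% of all genes were called in that fit (3.19% higher after kainate). In the same blocked fit of neurons, 4 of 6 astrocyte markers were called higher and 2 lower after kainate, with summed levels of 95.4 to 252 CPM in kainate and 74.5 to 131 CPM in sham neurons and no marker at 0 in any library. Of the microglial markers 1 of 6 was called higher and 1 lower, with sums of 67.4 to 73.2 CPM in kainate and 44.6 to 67.5 CPM in sham neurons, and 1 of 3 choroid plexus markers was called higher, with sums of 36.1 to 75.2 and 30.8 to 41.3 CPM. Of the neuronal markers 2 of 7 were called higher (3343 to 6686 and 3776 to 7532 CPM) and of the oligodendrocyte markers 1 of 6 lower (209 to 447 and 263 to 475 CPM). The part of these shifts in the value of Sat1 was not tested. In the libraries of replicates 2 and 3 alone, an alternative chosen after the data were seen, Sat1 was called as well, at 1.00 (standard error 0.35, FDR = 0.214), in a fit that called 2.28% of all genes.

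The enzymes downstream of Odc1 had small kainate differences in neurons. Srm, spermidine synthase, was at 86.2, 63.9 and 64.1 CPM after kainate and at 69.6, 50.4 and 43.3 CPM in sham libraries, a difference of 0.39 on the log2 scale (standard error 0.36, FDR = 1) with overlapping groups. Within each replicate number Srm was higher after kainate in neurons, by 1.24, 1.27 and 1.48 times. It was higher in both glial pairs as well, but these come from the same pools and are not independent. How often other genes did so was not tested. Amd1 differed by 0.02 and Sms, spermine synthase, by -0.26 on the log2 scale, each less than its standard error. Within each replicate number Sms was lower after kainate in neurons, at ratios of 0.914, 0.889 and 0.606, whereas the glial ratios were 1.07 and 1.09. Of the regulators of the Odc1 protein, Oaz1 differed by 0.16, Oaz2 by 0.16, Azin1 by 0.25 and Azin2 by -0.12 on the same scale, all within 1 standard error. Smox, the oxidase, differed by 0.32 (standard error 0.40). The replicate block changed no call among these 8 genes in neurons.

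In glia, none of the other 9 genes was called at FDR below 0.25, where 0.101% of all genes were called, but 3 of the 9 had an unadjusted p below 0.05 against 2.05% of all genes. These were Srm, Azin1 and Azin2, and in all 3 the kainate libraries were higher than both sham libraries, as in 4.7% of all genes. DESeq2's Wald test called none of the 9 in glia, against 0.624% of all genes. The median log2 fold change of the 9 genes was 0.05, beside 0.02 over all genes. With the replicate number as a block, Srm, Azin1 and Azin2 were called higher after kainate, in a fit that called 5.79% of all genes, 2.93% higher and 2.86% lower. With no sham glia library of replicate 2, the blocked glial values rest on the pairs of replicates 1 and 3, and the pair of replicate 1 holds the low-input sham library.

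Azin1, an antizyme inhibitor, was at 216, 122 and 114 CPM in kainate glia and at 87.8 and 37.1 CPM in sham glia. The lowest kainate library was above the highest sham library, with replicate 1 the highest in both groups. The log2 fold change was 1.27 (standard error 0.49, unadjusted p = 0.0211 and FDR = 1.00 by edgeR), and 1.46 (standard error 0.23, FDR = 1.08e-05) with the block. By replicate number, kainate exceeded sham 2.46 and 3.06 times.

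Srm was at 71.4, 51.9 and 41.1 CPM in kainate glia and at 36.4 and 18.5 CPM in sham glia. Its log2 fold change was 1.00 (standard error 0.42, unadjusted p = 0.0324 and FDR = 1.00 by edgeR) without the block and 1.06 (standard error 0.23, FDR = 0.00294) with it. Azin2, the second antizyme inhibitor, was at 29.6, 42.5 and 34.4 CPM in kainate glia against 17.6 and 23.1 CPM in sham glia, and replicate 1 was here the lowest library of both groups. Its log2 fold change was 0.80 (standard error 0.37, unadjusted p = 0.0470 and FDR = 1.00 by edgeR), and 0.66 (standard error 0.25, FDR = 0.208) with the block. In the libraries of replicates 2 and 3 alone, which leave sham glia with replicate 3, Azin1 was called at 1.68 (standard error 0.46, FDR = 0.0727) in a fit that called 1.08% of all genes, and Srm and Azin2 were not. Without sham glia replicate 1, the low-input library, the values were 2.05 for Azin1 and 1.59 for Srm on the log2 scale. They were 0.77 and 0.58 without sham glia replicate 3, and 0.79 and 0.64 without kainate glia replicate 1.

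**Figure D2:**
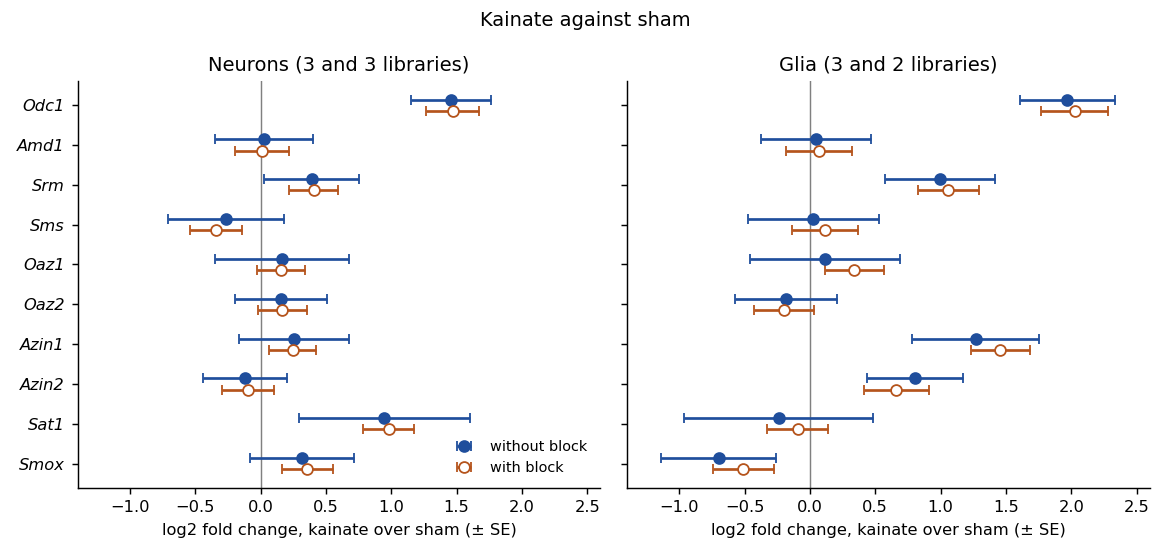
Log2 fold change of kainate over sham (horizontal axis) with its standard error for each gene in neurons (left) and glia (right), from the fit without the block (filled) and with the replicate number as a block (open). Odc1 lies at 1.46 in neurons and 1.97 in glia, Sat1 stands out of the other genes in neurons, and Srm, Azin1 and Azin2 stand out in glia.

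The antizymes differed less between the treatments in glia than their standard errors. Oaz1 ranged from 31.8 to 101 CPM in kainate glia and from 24.7 to 81.2 CPM in sham glia, and its log2 fold change was 0.12 (standard error 0.57). Oaz2 ranged from 29.9 to 46.2 and from 32.1 to 56.6 CPM, and its log2 difference was -0.18 (standard error 0.39). Both genes overlapped between the treatments, and neither was called with the block. By replicate number, Oaz1 was higher after kainate 1.25 and 1.29 times in glia and in 5 of 5 pairs over both fractions, by 1.05 times at the least, and Oaz2 was higher in 2 of 5. Amd1 and Sms differed by 0.05 and 0.02 on the log2 scale in glia, far less than their standard errors.

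The catabolic genes varied widely between the glial libraries. Sat1 was at 292, 70.0 and 53.2 CPM in kainate glia and at 258 and 68.5 CPM in sham glia. Replicate 1 thus held about the same high level in both treatments, and the libraries of replicates 2 and 3 lay between 53.2 and 70.0 CPM. The log2 fold change of Sat1 was -0.24 (standard error 0.72), and it was 1.36 without both low-input libraries, which leaves sham glia with replicate 3 alone. Smox was at 142, 94.3 and 85.9 CPM in kainate glia and at 249 and 99.4 CPM in sham glia, which is a log2 difference of -0.70 (standard error 0.44, FDR = 1.00). Smox was called lower after kainate only when sham glia replicate 3 was left out, with a log2 fold change of -1.22 and an FDR of 0.249, in a fit that called 6.59% of all genes (1.06% lower after kainate). It was 0.14 when sham glia replicate 1 was left out.

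**Figure D3:**
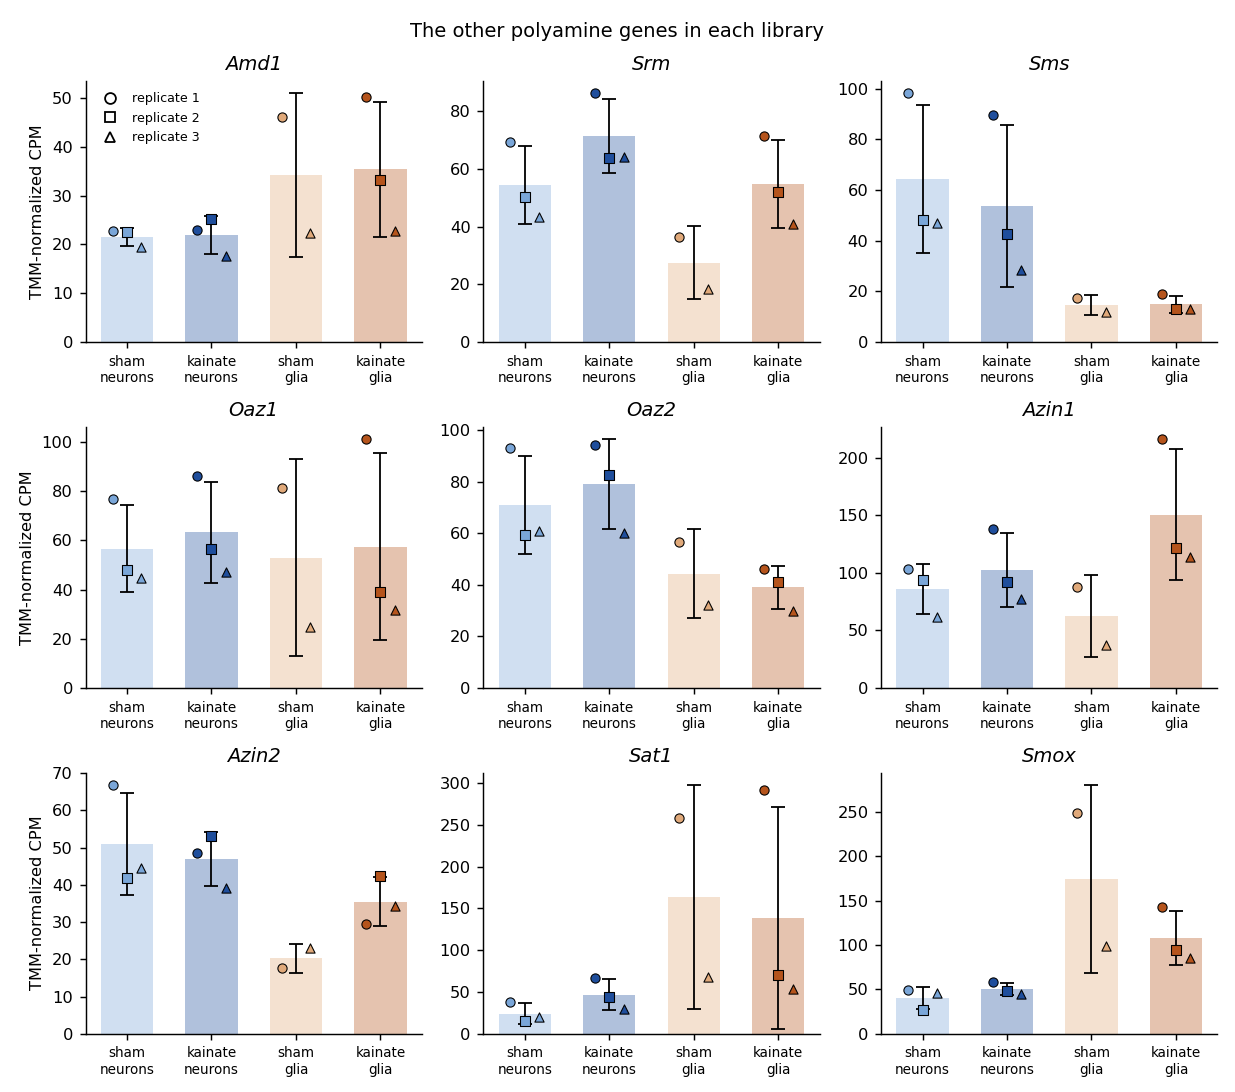
Normalized CPM (vertical axes) of the other 9 genes in the 11 libraries, with symbols for the replicate number, bars for group means and error bars for the SD. Azin1, Srm and Azin2 are higher in all 3 libraries of kainate glia than in the 2 of sham glia, and Sat1 is at 292 and 258 CPM in the glial libraries of replicate 1.

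Marker genes of glial classes varied between the glial libraries. The summed level of the 6 oligodendrocyte markers ranged from 4852 to 27163 CPM in kainate glia and from 8752 to 38943 CPM in sham glia, that of the 6 microglial markers from 651 to 1877 and from 656 to 3561 CPM, and that of the 6 astrocyte markers from 545 to 2703 and from 780 to 3042 CPM. None of these markers was at 0 in any library or was called between treatments without the block. With the block, 4 of 6 oligodendrocyte markers, 4 of 4 precursor markers, 2 of 6 microglial and 2 of 6 astrocyte markers were called lower after kainate in glia, and 1 astrocyte marker higher. Of the 3 choroid plexus markers 2 were called higher with the block and none without it, in the direction of Srm, Azin1 and Azin2, and their summed level was 20.7 to 91.0 CPM in kainate glia and 15.6 to 18.5 CPM in sham glia, without overlap. Of the 7 neuronal markers 1 was called higher with the block, and their sum was 558 to 823 CPM in kainate and 521 to 694 CPM in sham glia. The part of these shifts in the glial values of the polyamine genes was not tested.

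Whether the kainate effect differed between the fractions was tested for all 10 genes, for Odc1 with the limit given above. None was called, where 0.00246% of all genes were called, and none had an unadjusted p below 0.05, against 0.909% of all genes. DESeq2's Wald test called none of the 10, against 0.0761% of all genes. The smallest p was that of Azin2, with an effect in neurons minus that in glia of -0.92 on the log2 scale (standard error 0.49, FDR = 1.00 by edgeR). With the replicate block, where 1.94% of all genes were called (1.23% with a positive and 0.702% with a negative difference), Azin1 and Sat1 were called in opposite directions. The difference was -1.21 (standard error 0.29, FDR = 0.0190) for Azin1 and 1.07 (standard error 0.30, FDR = 0.0853) for Sat1. Without the block, Azin1 was at -1.01 (standard error 0.63) and Sat1 at 1.19 (standard error 0.97). With each library left out in turn, the unblocked values ranged from -1.79 to -0.51 for Azin1 and from -0.10 to 2.45 for Sat1. For Odc1 the difference was -0.55 with the block (standard error 0.32, FDR = 0.895) and was not called.

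Between NeuN+ and NeuN- nuclei over both treatments, 8 of the 10 genes were called at FDR below 0.25, 5 higher and 3 lower in neurons. Of all genes tested, 37.2% were called in this comparison, 16.8% higher and 20.4% lower. The median log2 fold change was 0.40 over the 10 genes and -0.47 over all genes tested, and the latter was 0.24 without sham glia replicate 3. Besides Odc1, the synthases Srm and Sms, the antizyme Oaz2 and the antizyme inhibitor Azin2 were higher in neurons. Amd1 and both catabolic genes, Sat1 and Smox, were lower.

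Sms had the largest difference among those higher in neurons, 1.98 on the log2 scale (standard error 0.36, FDR = 0.00111). It was at 89.7, 42.8 and 28.5 CPM in kainate neurons and at 98.2, 48.2 and 47.0 CPM in sham neurons. In glia it was at 18.8, 13.1 and 13.0 CPM after kainate and at 17.5 and 11.95 CPM in sham libraries. The 6 neuronal libraries therefore lay above all 5 glial libraries, as they did for 8.92% of all genes tested. Oaz2 was the other gene without overlap in that direction, at 59.3 to 94.3 CPM in neurons and 29.9 to 56.6 CPM in glia. Its log2 fold change was 0.85 (standard error 0.27, FDR = 0.0446), and its ratio within a pool was 1.64 to 2.04.

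Azin2 was higher in neurons by 0.87 on the log2 scale (standard error 0.25, FDR = 0.0246) and Srm by 0.68 (standard error 0.28, FDR = 0.114). Both were higher in neurons in 5 of 5 pools, with ratios of 1.14 to 3.802 for Azin2 and 1.21 to 2.33 for Srm. The neuronal and glial libraries overlapped for both. For Srm, the call was lost without replicate 3 of either glial group.

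Smox was lower in neurons, and its log2 difference was -1.60 (standard error 0.30, FDR = 0.00149). Its neuronal libraries held 26.6 to 58.2 CPM and its glial libraries 85.9 to 249 CPM, without overlap, as in 6.31% of all genes in that direction. Sat1 was lower as well, by -2.16 (standard error 0.49, FDR = 0.00639), which exceeded the difference of Sms in this fit but not with the pool as a block, where Sat1 was at -1.75 and Sms at 1.96. Its ratio of neurons to glia was 0.228 and 0.147 in the pools of replicate 1 and 0.286 to 0.624 in the other 3 pools, so Sat1 was lower in neurons in 5 of 5 pools. In the libraries of replicates 2 and 3 alone the difference was smaller, -1.24 on the log2 scale (standard error 0.27, FDR = 7.50e-05).

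Amd1 was lower in neurons by a smaller margin of -0.68 on the log2 scale (standard error 0.28, FDR = 0.122). It ranged from 17.6 to 25.1 CPM in neurons and from 22.4 to 50.2 CPM in glia, and it was lower in neurons in 5 of 5 pools. The call was lost without replicate 1 of either glial group, the libraries where Amd1 was highest. Amd1 has a near-identical copy, Amd2, whose own counts were lower in neurons by 0.92 on the log2 scale (standard error 0.46, FDR = 0.200). Only reads that mapped uniquely to a gene were counted, so reads that match these genes and their pseudogenes alike may be missing from the counts.

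Oaz1 and Azin1 were not called between the fractions, with log2 fold changes of 0.12 (standard error 0.39) and -0.05 (standard error 0.31). Azin1 was lower in neurons than in glia in 3 of 3 kainate pools, at ratios of 0.640 to 0.757, and higher in both sham pools that held the 2 fractions, at 1.17 and 1.65. With the pool as a block, Oaz1 was called higher in neurons, by 0.34 (standard error 0.20, FDR = 0.208), in a fit that called 59.7% of all genes, 24.9% of all being higher in neurons. It was also called higher with replicates 2 and 3 only, by 0.85 (FDR = 0.0106), where 65.5% of all genes were called, and without sham glia replicate 1, by 0.69 (FDR = 0.189), where 59.8% were. Its value fell below 0, to between -0.20 and -0.024, without replicate 1 of kainate or sham neurons or replicate 3 of kainate or sham glia. No other call of this comparison changed with the pool block.

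**Figure D4:**
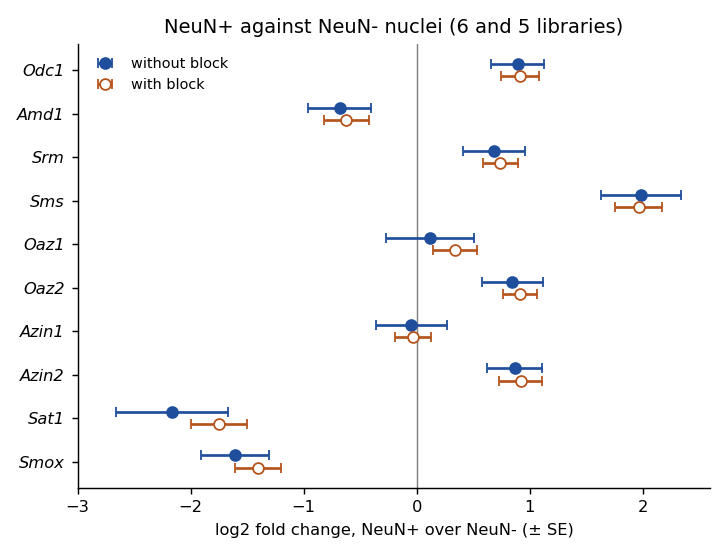
Log2 fold change of NeuN+ over NeuN- nuclei (horizontal axis) with its standard error for each gene over both treatments, from the fit without the block (filled) and with the pool as a block (open). Sms lies at 1.98, while Sat1 lies at -2.16 and Smox at -1.60.

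Levels can be set against each other between genes only per length, here as CPM per kilobase of annotated exon. In sham neurons Srm was the highest at 34.0 ± 8.50 (SD, n = 3) CPM per kilobase, followed by Oaz2 at 23.7 ± 6.35 and Oaz1 at 22.1 ± 6.92. Odc1 was ninth of the 10 genes at 6.67 ± 1.19, just above Amd1 at 6.07 ± 0.525. In this order every gene overlapped the next in its range over libraries, apart from Oaz1 and the next gene, Azin1.

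In kainate neurons Odc1 was the fourth at 18.3 ± 1.45 (SD, n = 3) CPM per kilobase, below Srm, Oaz2 and Oaz1, and its range overlapped those of its neighbours Oaz1 and Sat1. Only Srm, at 44.6 ± 8.03, was separate from the next gene. In sham glia Odc1 was ninth at 3.00 ± 0.640 (n = 2), and only Sms was lower, at 2.45 ± 0.654. Sat1 at 58.9 ± 48.4 and Smox at 44.8 ± 27.2 CPM per kilobase headed that order, and for both genes the pair of sham glia libraries lay far apart. Sat1 led through replicate 1, at 105 CPM per kilobase in kainate and 93.1 in sham glia. In the other glial libraries it lay below Srm, at 25.2 against 32.4 and 19.2 against 25.7 in kainate replicates 2 and 3, or below Smox, at 24.7 against 25.5 in sham replicate 3. In kainate glia Odc1 was seventh at 11.8 ± 1.82 (n = 3), and Sms at 2.49 ± 0.552 lay below all libraries of the gene above it.

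**Figure D5:**
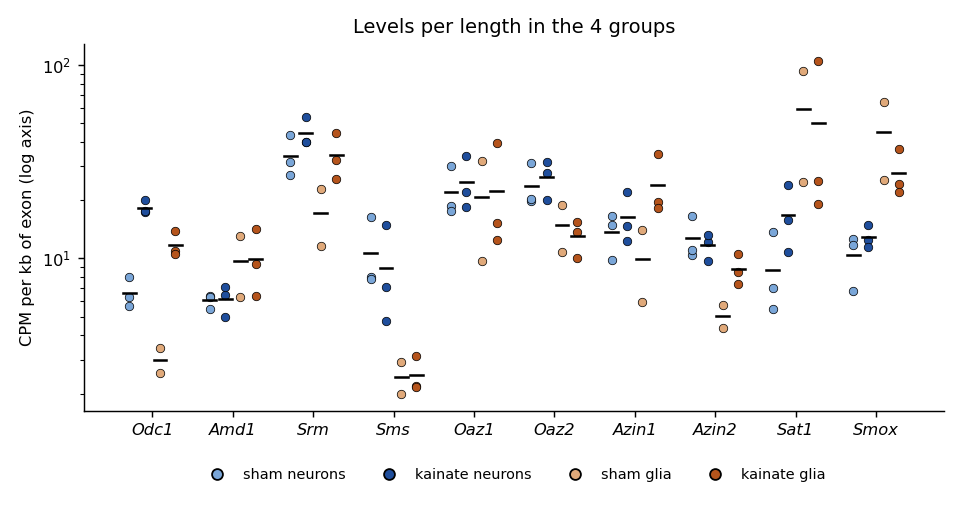
CPM per kilobase of exon (vertical axis, log scale) of each gene in each library, coloured by group, with a line at each group mean. Odc1 moves from 6.67 to 18.3 in neurons and from 3.00 to 11.8 in glia between sham and kainate, while Srm has the highest mean in neurons. The highest mean in glia is that of Sat1, whose replicate 1 libraries lie at 105 and 93.1.

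The pattern of Odc1 over the 11 libraries was compared with that of 24721 genes with a mean of at least 1 CPM, as a description across libraries that share pools and treatments. The 5 genes most like it by Pearson's correlation of log2 CPM were Srxn1 (r = 0.975), Stk40 (0.969), Cdh22 (0.958), Uck2 (0.949) and Egr1 (0.947). Egr1, an immediate early transcription factor, ranged from 124 to 326 CPM in kainate neurons and from 33.0 to 97.02 CPM in sham neurons, and from 147 to 355 CPM in kainate glia against 8.78 to 17.1 CPM in sham glia. Srxn1, sulfiredoxin, ranged from 125 to 147 and from 23.9 to 51.8 CPM in neurons, and from 60.8 to 67.9 and from 11.8 to 18.9 CPM in glia. Of the other 9 polyamine genes compared, Srm was the closest to Odc1 (r = 0.844, rank 82), followed by Azin1 (0.643) and Azin2 (0.594). Smox was the farthest, at -0.326.

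A further 36 genes of arginine, ornithine, methionine and polyamine supply, transport and use were listed, and all were tested. None was called here by edgeR's quasi-likelihood test between kainate and sham in neurons or glia or in the difference of the effects. Of all genes, 0.165%, 0.101% and 0.00246% were called in these comparisons. For neurons and for the difference none had an unadjusted p below 0.05, against 2.09% and 0.909% of all genes, and in glia 2 of 36 had, Slc7a1 and Aldh18a1, against 2.05%. DESeq2's Wald test, which gave an adjusted p for 31 of the 36 genes in glia, called Slc7a1 alone there, in a test that called 0.624% of all genes, and it called none of them in neurons or for the difference, against 0.884% and 0.0761% of all genes. Slc7a1, which imports arginine and ornithine, was at 30.4 to 45.4 CPM in kainate glia and at 16.1 to 17.4 CPM in sham glia, 1.27 higher after kainate on the log2 scale (standard error 0.35, unadjusted p = 0.00275 and FDR = 0.965 by edgeR). Aldh18a1, which starts the synthesis of proline and ornithine from glutamate, was higher by 0.91 (standard error 0.37, unadjusted p = 0.0279 and FDR = 1.00 by edgeR). Both are named after their values were seen. The paper, which analysed glia and neurons separately, lists Slc7a1 among its genes upregulated in glia at the same FDR threshold. Why edgeR's test called Slc7a1 there and not here was not tested.

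With the replicate block, 4 of the 36 genes were called higher after kainate in glia and 2 lower, in the fit that called 5.79% of all genes. The higher ones were Slc7a1 at 1.15 (FDR = 0.00425), Slc3a2, the heavy chain of several other amino acid transporters, at 1.04 (FDR = 0.00173), Eif5a at 0.88 (FDR = 0.0163) and Aldh18a1 at 0.70 (FDR = 0.165) on the log2 scale. Eif5a is the translation factor that carries hypusine, a residue made from spermidine. The lower ones were Adi1 at -1.002 (FDR = 0.0326) and the amino acid transporter Slc7a2 at -0.73 (FDR = 0.245). In neurons the block called 2 higher and none lower, Dhps, the first enzyme of hypusine synthesis, at 0.74 (FDR = 0.0146) and the proteoglycan Gpc1 at 0.70 (FDR = 0.0128), where 5.09% of all genes were called. These genes, too, are named after their values were seen.

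Between the fractions, 13 of the 36 genes were called higher and 11 lower in neurons, beside the 37.2% of all genes called (16.8% higher and 20.4% lower). With the pool as a block 16 were called higher and 11 lower, in a fit that called 59.7% of all genes. The block added Mat2b at 0.44 (FDR = 0.0600), Eif5a at 0.52 (FDR = 0.0282) and Eif5a2 at 0.49 (FDR = 0.0862) on the log2 scale. The 4 higher genes with the smallest p were Atp13a2, Apip, Mri1 and Slc18b1. Atp13a2, a lysosomal polyamine exporter, was higher by 1.58 on the log2 scale (standard error 0.31, FDR = 0.00223), and Slc18b1, a vesicular polyamine transporter, by 1.00 (standard error 0.28, FDR = 0.0231). Apip and Mri1, which act in methionine salvage, were higher by 1.48 and 1.08 on the log2 scale. The 4 lower genes with the smallest p were Slc7a2 at -2.995, Atp13a4 at -3.93, Adi1 at -2.19 and Slc22a3, an organic cation transporter, at -1.20.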

How the data were processed

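The authors trimmed the mRNAseq reads with Trim Galore 0.4.3, aligned them to mm10 with Rsubread, and used featureCounts and GENCODE M16 to count the reads that mapped uniquely to a gene. The deposited file holds those counts, without normalization, for 53379 genes and 11 libraries. Whether the counting used strand was not given in the sources used here. Sequencing was done on NextSeq500 or HiSeq3000, and which library was run on which is not given. The protocol in the labels speaks of right hippocampi, while the series' design and the methods of the study speak of left ones. The reads carry no molecular identifiers, so the depth understates the error of counting. The 11 bisulfite samples were not analysed here.

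Genes without a symbol (105) were left out, at most 0.0372% of the counts of a library. Analysis was done in R 4.3.3 with edgeR 4.0.16, limma 3.58.1 and DESeq2 1.42.0. A filter on low counts (filterByExpr, with a minimum of 10 counts in enough libraries and of 15 in total) left 40714 genes. After TMM scaling, edgeR's quasi-likelihood test (glmQLFit, legacy=TRUE) was run on 1 model with a mean for each of the 4 groups. Values of p were adjusted over all genes of a comparison by the Benjamini-Hochberg method, with FDR below 0.25 as the threshold of the study. A standard error is the log2 fold change divided by the root of F. The fit was also run on simulated counts, drawn with less spread than the common value of these data and without shared pools. That run therefore does not show how the fit or its block performs here. CPM use TMM factors, and CPM per kilobase divides by the union of exons in GENCODE M21, from which coordinates were taken as well. Promoter windows were taken from RefSeq.

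The 10 genes, the 36 further genes of the pathway, the marker lists and the 4 elements were chosen with earlier results of these data known. All 10 genes are named. Of the 36, those called between kainate and sham and the 4 higher and 4 lower in neurons with the smallest p are named, and the 5 genes most like Odc1 were taken from genes with a mean of at least 1 CPM. Odc1 was left out of counts of called genes between kainate and sham.

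The replicate numbers were taken to pair the samples, although the labels do not say that a number marks a shared batch. Deviations from the group means correlated at 0.643, 0.161 and 0.491 between kainate and sham neurons of one number. Between different numbers they correlated at 0.166 (kainate 2 with sham 3) and 0.418 (kainate 3 with sham 2), and the other 4 were negative. Same-numbered glia correlated at 0.760 and 0.787, and kainate 2 with sham 3 at 0.210, where the pair of sham libraries deviates in mirror image. Neurons and glia of one number come from one pool of mice. A fit blocked by replicate number in each cell type, or by pool for NeuN+ against NeuN- nuclei, is therefore given beside a result where it changes a call. Replicates are pools of mice, and 3 or fewer per group limit the precision. No pair of libraries agreed within sampling noise.

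The snoRNA Gm22748 lies in an intron of Odc1, Mir1982 in an exon of Oaz1 and Mir6951 in an intron of Azin1. The antisense gene Gm49077 lies over an exon of Azin1, and there the genes cannot be told apart if reads were counted without strand. The antisense gene Gm15904 lies within Azin2 but over none of its exons.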

Additional observations from a re-analysis of the deposited data

How the results depend on the processing

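Calls among the polyamine genes other than Odc1 after kainate depended on the replicate block. In neurons 0 of 9 were called without it and 1, Sat1, with it, and in glia 0 of 9 without and 3, Srm, Azin1 and Azin2, with it. The difference of the effects went from 0 to 2 of 10 with the block, Azin1 and Sat1. The residual degrees of freedom fell from 7 to 3 with either block. With replicates 2 and 3 only, 1 of 9 was called in neurons, Sat1, and 1 of 9 in glia, Azin1 (FDR = 0.0727), where 2.28% and 1.08% of all genes were called. Leaving out each library in turn gave 0 to 1 calls in glia, the 1 being Smox without sham glia replicate 3, where 6.59% of all genes were called, and 0 in neurons and for the difference. The block by pool took the calls between NeuN+ and NeuN- nuclei from 8 to 9 of 10, and the other alternatives gave 6 to 9. Amd1 was not called at FDR below 0.05, without both low-input libraries or with low input as a covariate, with replicates 2 and 3 only, or without kainate glia replicate 1 or sham glia replicate 1, and Srm not at FDR below 0.05 or without replicate 3 of kainate or sham glia. Besides the calls named here and in the text, the block changed no call among the 10 genes.

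The kainate log2 fold change of Odc1 ranged from 1.35 to 1.61 in neurons and from 1.74 to 2.28 in glia over 22 alternatives each, and 2.28 was reached without both low-input libraries. Some values that were not called changed sign. In neurons this was Amd1 with no filter on low counts (-0.037), and with replicates 2 and 3 only Amd1 (-0.047) and Azin2 (0.021). In glia it was Amd1 (-0.047) and Sms (-0.065) with DESeq2's size factors and with its Wald test, Sms with no filter (-0.011), Oaz2 (0.27), Sat1 (1.36) and Smox (0.22) without both low-input libraries, and Oaz2 (0.16) with replicates 2 and 3 only. For the difference between neurons and glia it was Amd1 with DESeq2's size factors (0.054) and Wald test (0.055), Oaz1 without both low-input libraries (-1.29), with low input as a covariate (-0.15), with the block (-0.18) and with replicates 2 and 3 only (-0.46), and without both low-input libraries Oaz2 (-0.11) and Sat1 (-0.41). Between NeuN+ and NeuN- nuclei it was Azin1 without both low-input libraries (0.29), with low input as a covariate (0.10) and with replicates 2 and 3 only (0.41), the last with an FDR of 0.224 and so called higher in neurons. The cause was not tested.

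With each library left out in turn, the log2 fold changes that crossed 0 ranged in neurons from -0.086 to 0.16 for Amd1, -0.85 to 0.17 for Sms, -0.13 to 0.45 for Oaz1, -0.021 to 0.42 for Azin1 and -0.24 to 0.12 for Azin2. In glia they ranged from -0.41 to 0.68 for Amd1, -0.28 to 0.35 for Sms, -0.71 to 1.24 for Oaz1, -0.54 to 0.31 for Oaz2, -1.55 to 1.04 for Sat1 and -1.22 to 0.14 for Smox. For the difference they ranged from -0.66 to 0.41 for Amd1, -0.88 to 0.15 for Sms, -1.08 to 0.83 for Oaz1, -0.15 to 0.70 for Oaz2 and -0.10 to 2.45 for Sat1, and between NeuN+ and NeuN- nuclei from -0.20 to 0.69 for Oaz1 and -0.31 to 0.35 for Azin1. Leaving out a sham glia library leaves 1, taken to vary like the other groups, and without sham glia replicate 3 the median log2 fold change of all genes in glia shifted by 0.73 and that between NeuN+ and NeuN- nuclei by 0.71.

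Over the alternatives, the number of all genes called went from 67 to between 5 and 2072 in neurons, from 41 to between 0 and 2812 in glia, from 1 to between 0 and 788 for the difference, and from 15159 to between 6983 and 29502 for NeuN+ against NeuN- nuclei. The count of 0 in glia was that of the fit to glial libraries alone.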
